A study of Mus musculus with 6 samples.

Results

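The genes described here carry iron into the cell, store it, export it and sense it. The set holds 10 genes: the transferrin receptor Tfrc, its ligand Trf (transferrin), the iron reductase Steap3, the metal transporter Slc11a2, the ferritin heavy chain Fth1, the ferritin receptor for autophagy Ncoa4, the exporter Slc40a1, the iron regulatory proteins Aco1 and Ireb2, and the heme oxygenase Hmox1. They were chosen by name for their roles in iron handling, around Tfrc, which was selected on its measured difference between the groups compared here. The question was whether that difference belongs to a wider iron response. Rows of the value table were kept where the platform annotation gives exactly 1 symbol, with the row of highest mean over the arrays for a gene with several. By that rule 9 of the 10 genes had a row, among 22180 genes in all. The row that holds Trf carries more than 1 symbol, so Trf was not analysed here.

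The samples were cultured heart muscle cells of 1-day-old mice of the strain given as C57BL/6, enriched by letting faster-settling cells attach for an hour and taking the rest. All were held for 12 h at 2% oxygen, with 5% CO2 and 93% N2. Fibroblast growth factor 21 (FGF21), a hormone that acts on energy metabolism, was present at 1 µg/ml in 3 samples and absent from 3 controls, with 1 array a sample. No group without hypoxia was analysed here. The labels give 20% fetal bovine serum and 95% oxygen for the culture before hypoxia, and name no serum level for the hypoxic hours. They call the samples biological replicates without naming the litters or cultures, so the spread between them may be in part technical. Values are log2 expression values made by the robust multi-array average (RMA), and their scale is set by each row's probes, so levels of different genes are not compared.

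Iron enters most cells bound to transferrin. The transferrin receptor carries it into endosomes, where a STEAP reductase and the transporter DMT1, encoded by Slc11a2, pass it on to the cytosol. Iron not in use is stored in ferritin, released again when NCOA4 takes ferritin to the lysosome, or exported by ferroportin, encoded by Slc40a1. When cells are short of iron, the regulatory proteins IRP1 (Aco1) and IRP2 (Ireb2) bind iron-responsive elements in messenger RNAs: they stabilise the Tfrc transcript and hold back translation of ferritin and ferroportin. The last of these steps leaves the amount of messenger RNA largely as it is, and an array reads only that amount. Tfrc, Trf and Hmox1 are also known targets of the hypoxia-inducible factors (HIF), and Hmox1, Fth1 and Slc40a1 of the stress factor NRF2.

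The promoter of Tfrc is shown because both groups were hypoxic and this gene is the member with the largest difference. RefSeq (build GRCm38.p6) places 250 bases before the later of its annotated starts at chr16:32608872-32609121, on the plus strand. Capitals mark ACGTG, the core letters of a HIF-binding element, searched on both strands.

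Tfrc: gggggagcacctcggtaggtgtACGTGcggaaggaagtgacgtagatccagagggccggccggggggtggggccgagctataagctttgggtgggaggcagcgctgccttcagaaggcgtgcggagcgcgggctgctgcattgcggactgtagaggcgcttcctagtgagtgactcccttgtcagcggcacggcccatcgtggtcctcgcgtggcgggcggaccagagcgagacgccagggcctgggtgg

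The single match starts 228 bases before that start. The 250 bases before the earlier annotated start of Tfrc hold no whole match, because the match above lies across that start. The same letters occur in 16.6% of 32851 promoter stretches of that length. Of the 10 genes, 6 had a promoter in the table, with 13 stretches among them, and ACGTG was found in 3 of the 13: 1 of Tfrc and 2 of Ncoa4. The other form of the core, GCGTG, has 2 matches before each start of Tfrc, is not in capitals above, and occurs in 28.2% of all stretches. These are matches of letters, and binding was not measured.

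Among these genes the uptake receptor was higher with FGF21, the exporter and the heme oxygenase were lower, and the ferritin heavy chain, its autophagy receptor and both iron regulatory proteins had differences close to 0. None of the 8 genes other than Tfrc passed limma at an adjusted p under 0.05, where 0% of all genes passed. At an unadjusted limma p under 0.05 there were 2 of the 8, Slc40a1 and Hmox1, both lower, against 5.11% of all genes lower and 6.59% higher at that level. With groups that do not overlap there were the same 2 genes, against 8.14% of all genes lower and 8.99% higher. Of the 8, 3 were higher and 5 lower, with a median log2 difference of -0.018 beside -0.0056 over all genes.

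**Figure D1:**
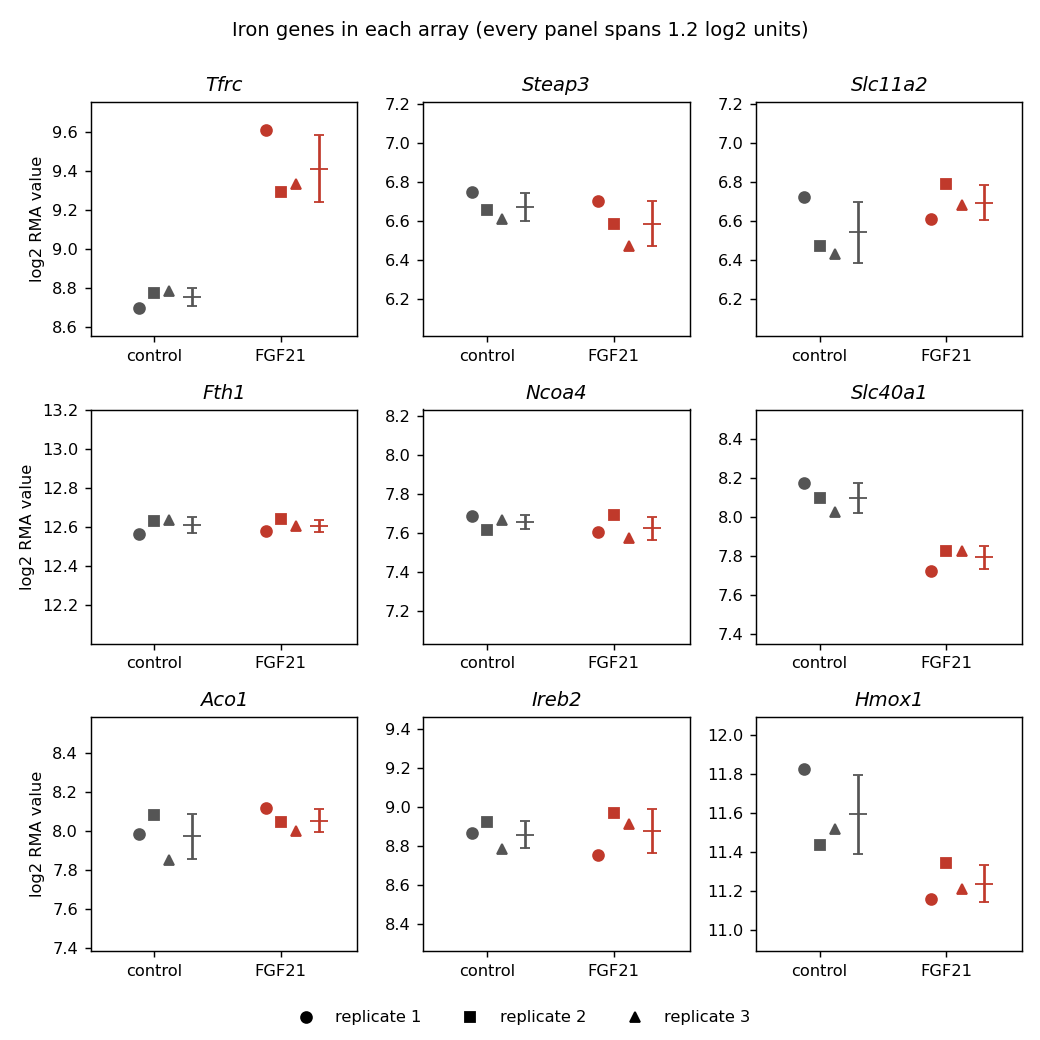
Log2 RMA values of the 9 measured iron genes in each of the 3 control and 3 FGF21 arrays, with marker shape for the replicate number and a bar for the group mean ± SD (n = 3). Each panel spans the same height: Tfrc stands apart upwards with FGF21, Slc40a1 and Hmox1 downwards, and the groups overlap in the other 6 panels.

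In the uptake arm, Tfrc was at 9.61, 9.29 and 9.33 in the FGF21 arrays of replicates 1 to 3 and at 8.70, 8.78 and 8.79 in the controls. All FGF21 arrays lay above all controls, and the highest was replicate 1. The means were 9.41 ± 0.172 (SD, n = 3) and 8.76 ± 0.048, a log2 difference of 0.66 ± 0.088 (SE), or 1.58-fold (95% interval 1.38 to 1.81). As this difference led to the choice of the set, it is a description here and carries no test. Its interval does not allow for that choice and is no support for the difference. Leaving out 1 array at a time gave values from 0.56, when FGF21 replicate 1 was dropped, to 0.72, when FGF21 replicate 2 was.

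Slc11a2, the transporter that moves iron out of endosomes, has forms of its transcript with and without an iron-responsive element at the 3′ end, like those of Tfrc. It stood at 6.61, 6.79 and 6.68 with FGF21 and at 6.72, 6.47 and 6.43 in the controls. Control replicate 1 lay between the FGF21 arrays, so the groups overlapped. The log2 difference was 0.15 ± 0.088 (SE), with a 95% interval of -0.045 to 0.35 and an adjusted p of 0.530 by limma. With 1 array left out, the difference ran from 0.098, when control replicate 3 was dropped, to 0.24, when control replicate 1 was. One row stands for all forms of the transcript, so those with and without the element were not told apart.

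Steap3, the reductase that prepares endosomal iron for transport, was at 6.70, 6.58 and 6.47 with FGF21 and at 6.75, 6.66 and 6.61 without. The groups overlapped, and the difference of -0.085 ± 0.076 (SE) had a 95% interval of -0.26 to 0.085. The 3 measured genes of the transferrin cycle thus gave differences of 0.66, 0.15 and -0.085. The groups overlapped for Slc11a2 and Steap3, and Tfrc was chosen on its difference.

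Storage genes gave the narrowest intervals. Fth1, the ferritin subunit that oxidises iron for storage, was at 12.58, 12.64 and 12.60 with FGF21 and at 12.57, 12.63 and 12.64 without. Its difference was -0.0034 ± 0.061 (SE), with a 95% interval of -0.14 to 0.13 and an adjusted p of 0.989 by limma. A change of 1.10-fold in either direction is the most this interval allows. The mouse genome holds close copies of Fth1, and how far the probes tell them apart was not tested. Ncoa4 was at 7.60, 7.69 and 7.57 with FGF21 and at 7.68, 7.62 and 7.67 without, with overlapping groups and a difference of -0.033 ± 0.063 (SE).

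The exporter gene had a difference opposite in sign to that of Tfrc. Slc40a1, the only known iron exporter of mammalian cells, was at 7.72, 7.83 and 7.82 with FGF21 and at 8.17, 8.09 and 8.02 in the controls. All FGF21 arrays lay below all controls. The means were 7.79 ± 0.058 (SD, n = 3) and 8.10 ± 0.076, a difference of -0.31 ± 0.068 (SE), or 1.24-fold lower (95% interval 1.11 to 1.37). The unadjusted p of limma was 0.0012 and the adjusted p over all genes 0.178, so the gene did not pass. In the order of genes by unadjusted p, it was number 152 of 22180.

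Hmox1, which opens the heme ring and frees its iron, was at 11.16, 11.34 and 11.21 with FGF21 and at 11.82, 11.44 and 11.52 in the controls. The groups did not overlap, and control replicate 1 lay above the other two controls. The difference was -0.36 ± 0.10 (SE), or 1.28-fold lower (95% interval 1.09 to 1.496), with an unadjusted p of 0.0057 and an adjusted p of 0.253 by limma. It was -0.24 when control replicate 1 was left out and -0.43 when control replicate 2 was.

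The genes of both iron regulatory proteins had intervals that crossed 0. Aco1 stood at 8.12, 8.05 and 7.999 with FGF21 and at 7.99, 8.08 and 7.85 without, a difference of 0.081 ± 0.075 (SE) with a 95% interval of -0.087 to 0.25. Ireb2 stood at 8.75, 8.97 and 8.91 with FGF21 and at 8.87, 8.92 and 8.78 without, a difference of 0.020 ± 0.076 (SE) with an interval of -0.15 to 0.19. Both pairs of groups overlapped. IRP1 changes activity by gaining or losing an iron-sulfur cluster and IRP2 by breakdown of the protein, and neither step is read by an array.

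**Figure D2:**
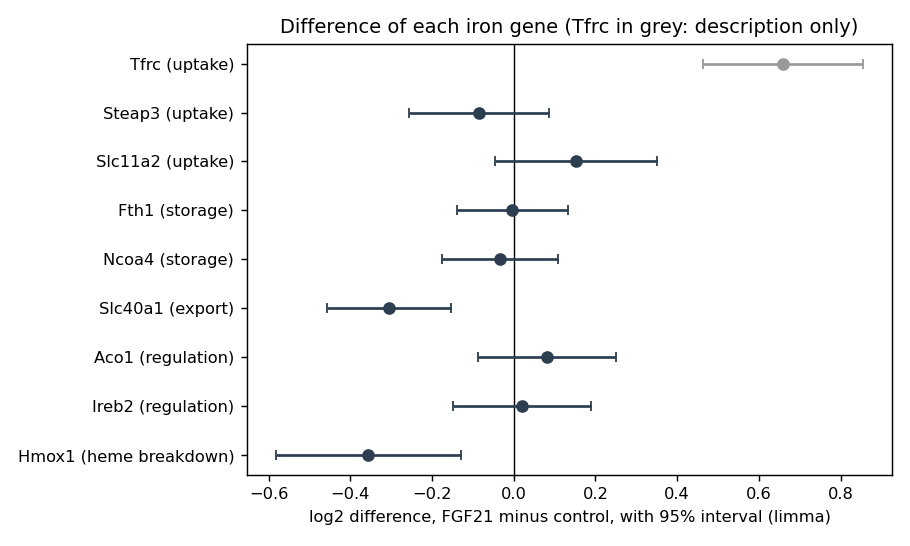
Log2 difference, FGF21 minus control, of each iron gene with its 95% interval from limma on 3 arrays a group. Tfrc is drawn in grey because its difference led to the choice of the set, which its interval does not allow for. The intervals of Slc40a1 and Hmox1 lie below 0, and those of the other 6 genes in black cross 0.

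Over the 6 arrays, Slc40a1 ran opposite to Tfrc, with a Pearson correlation of -0.98, the 7th lowest among 13402 genes at or above the lowest array median. Hmox1 correlated with Tfrc at -0.87. These are descriptions over 6 arrays, and any pair of genes that differ between the same 2 groups gives a high value. Over deviations from the group means the values were -0.78 for Slc40a1, then number 1126 from below, and -0.55 for Hmox1. Ireb2, with a group difference of 0.020, was lower still at -0.84, number 707 from below. The 5 genes most like Tfrc over the arrays were Fdft1 and Cyp51, enzymes of cholesterol synthesis, Caprin1, Ccar1 and the desaturase gene Fads1, each with a correlation of 0.99. Of these, Fdft1 differed by 0.80 on the log2 scale, Cyp51 by 1.09, Fads1 by 0.43, Ccar1 by 0.23 and Caprin1 by 0.065. Over deviations from the group means the 5 most alike were Kif24, Npas4, Caprin1, 1110038F14Rik and Flicr, of which Caprin1 alone is in both sets of 5.

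The rest of the iron pathway was read from 8 lists with 101 genes, of which 90 had a row. Of these 90, 55 were higher and 35 lower with FGF21, where 47.8% of all genes were higher, and 0 passed limma at an adjusted p under 0.05. At an unadjusted p under 0.05 there were 8 higher and 3 lower, 11 in all, and that count was 7 without FGF21 replicate 3 and 6 without control replicate 3. Of all genes, 6.59% were higher and 5.11% lower at that level. Groups did not overlap for 12 of the 90 genes higher and 3 lower, against 8.99% and 8.14% of all genes. The median log2 difference of the 90 genes was 0.022, and -0.0062 with quantile normalization applied again, beside -0.0056 over all genes. That baseline holds many dim rows. Over the 13403 genes at or above the lowest array median it was 0.023, beside 0.029 for the 81 iron genes among them. Of those 13403 genes with an unadjusted limma p under 0.05, 69.4% were higher. Among the 90 iron genes the lowest and highest differences were -0.21 and 0.31.

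**Figure D3:**
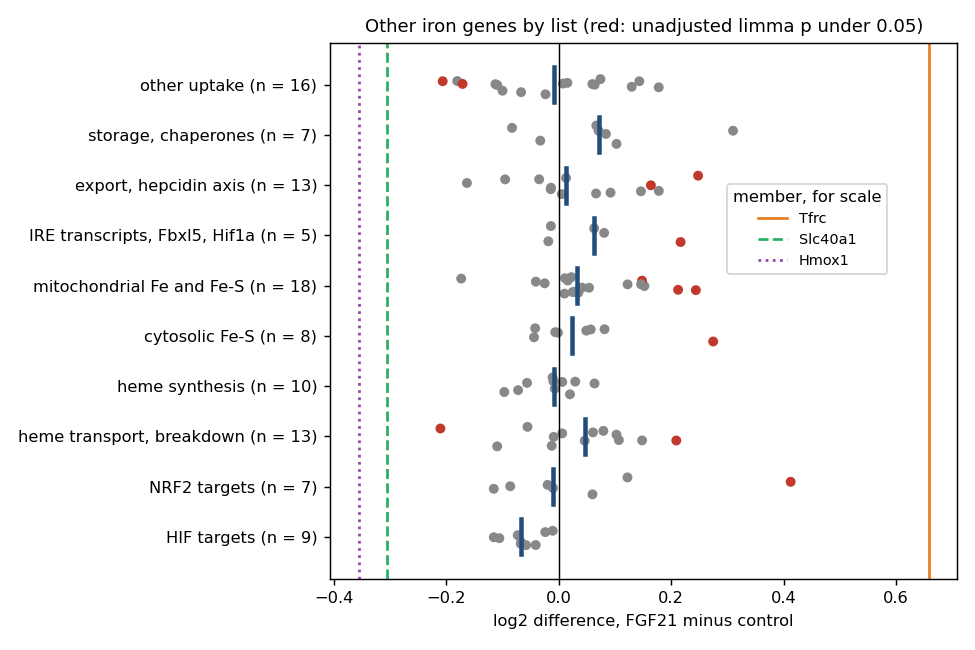
Log2 differences, FGF21 minus control, of the other measured iron genes in 8 lists and of NRF2 and HIF targets; points are genes, red where the unadjusted limma p is under 0.05, bars are list medians, and vertical lines give Tfrc, Slc40a1 and Hmox1 for scale. List medians lie between -0.067 for HIF targets and 0.071 for storage and chaperones.

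Among partners of export, Cp, the ceruloplasmin ferroxidase that helps iron leave the cell, was at 8.44, 8.58 and 8.58 with FGF21 and at 8.21, 8.30 and 8.34 without. Its groups did not overlap, and the difference was 0.25 ± 0.070 (SE), in the opposite direction to Slc40a1. Rnf217, a ubiquitin ligase that marks ferroportin for breakdown, was higher by 0.16 ± 0.063 (SE), also without overlap. Heph, a membrane ferroxidase related to Cp, differed by -0.16 ± 0.075. This list of 13 genes also holds the hepcidin genes and their regulators. Of the 13, 2 had an unadjusted limma p under 0.05, both higher, where 6.59% of all genes did. The adjusted p of limma for Cp was 0.250.

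In other uptake routes, 8 of 16 genes were higher and 8 lower, with a median of -0.0077. Steap4, a metalloreductase, and Slc22a17, a receptor for the iron-binding lipocalin-2, differed by -0.21 ± 0.072 and -0.17 ± 0.065 (SE). Both had an unadjusted limma p under 0.05, where 5.11% of all genes were lower at that level. Steap1, of the same family as Steap4, differed by 0.18 ± 0.087. Tfr2, the second transferrin receptor, differed by -0.18 ± 0.094, the sign opposite to that of Tfrc. The rows of Steap4 and Tfr2 lay below the lowest array median of 5.76, where differences are compressed. Among 7 genes of ferritin and the cytosolic iron chaperones none had an unadjusted p under 0.05, and the largest difference was that of Bola2, a cluster-binding partner of Glrx3, at 0.31 ± 0.14 (SE), with control replicate 1 lowest at 6.06.

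Other transcripts known for an iron-responsive element, in mouse or in human, did not pass limma at an adjusted p under 0.05. Cdc14a differed by 0.063 ± 0.069 (SE) and Epas1, which encodes HIF-2 alpha, by -0.018 ± 0.11. Cdc42bpa was higher by 0.22 ± 0.074, with groups that did not overlap and an adjusted p of 0.321 by limma. Fbxl5, the iron-sensing ligase that removes IRP2, differed by -0.014 ± 0.070.

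Genes of mitochondrial iron import and iron-sulfur cluster assembly were mostly higher by small amounts. Of 18 measured, 15 were higher with FGF21, against 47.8% of all genes, and 3 had an unadjusted p under 0.05, all higher, where 6.59% of all genes did. These were the assembly factors Isca2 at 0.24 ± 0.070 (SE), Glrx5 at 0.21 ± 0.080 and Bola3 at 0.15 ± 0.065. The share over all genes holds many dim rows, so it is not a close match for this list. The list median was 0.032, beside 0.023 over all genes at or above the lowest array median. The mitochondrial iron importer gene Slc25a37 differed by 0.011 ± 0.081. In the cytosolic assembly list, Nubp1, a scaffold of cluster assembly, differed by 0.27 ± 0.072, and the other 7 genes lay between -0.044 and 0.082.

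Heme synthesis genes showed no difference at an unadjusted p under 0.05 in any of 10 measured genes. Their median was -0.0079, and Alas1, the enzyme that starts the pathway outside red cells, differed by 0.0066 ± 0.099 (SE). Of 13 genes of heme transport and breakdown, the heme exporter gene Flvcr1 was higher by 0.21 ± 0.065, without overlap, and the heme scavenger gene Hpx differed by -0.21 ± 0.076. Hmox2, the second heme oxygenase, differed by 0.046 ± 0.066.

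Lists of NRF2 and HIF targets were set beside the members because both factors are known to act on some of them. Of 7 NRF2 targets, 3 were higher and 4 lower, with a median of -0.010. Slc7a11, the cystine transporter gene, had the largest difference, 0.41 ± 0.12 (SE), against -0.36 for Hmox1. All 9 measured HIF targets had lower values with FGF21, where 47.8% of all genes were higher. Their differences ran from -0.12 to -0.010, and none had an unadjusted p under 0.05. Their median was -0.067, opposite in sign to the difference of Tfrc. Whether HIF or NRF2 had a part in the differences of the members was not tested.

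Markers of the cells a heart culture can hold were read in the same arrays. With FGF21, 47.8% of all genes had higher values. All 8 cardiomyocyte markers and all 8 fibroblast markers had mean values above the lowest array median, as did 10 of 12 macrophage markers. The values cannot give the share of each cell type. In bulk RNA, fewer cells of a type and less RNA per cell cannot be told apart.

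Macrophages recycle iron and carry much Slc40a1 and Hmox1. Of 12 macrophage markers, 4 were higher and 8 lower with FGF21, with a median of -0.053. Cd68 differed by -0.20 and Ptprc by 0.20, each with groups apart. The summed linear level of the list ran from 3361 to 3569 with FGF21 and from 3352 to 3610 without, so it overlapped between the groups, and 2 of the 12 markers lay below the lowest array median. Lyz2 and Cd68 weigh most in that sum and differed by 0.14 and -0.20, so its overlap says little about macrophages. Of 8 endothelial markers, 7 were lower, with a median of -0.32. Their summed level ran from 1487 to 1815 with FGF21 and from 1974 to 2427 without. The part of macrophages or endothelial cells in the 2 lower iron genes was not tested.

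Red cell precursors and dividing cells are rich in Tfrc. All 6 measured erythroid markers had lower values with FGF21, with differences from -0.21 to -0.0095, and 5 of them lay below the lowest array median. Their summed level ran from 258 to 264 with FGF21 and from 272 to 292 without. The array medians were also lower with FGF21, at 5.76 to 5.79 against 5.81 to 5.83. The sign of such dim rows thus says little about red cell precursors. All 7 measured markers of dividing cells were higher with FGF21, with a median of 0.20. The summed level of these markers ran from 3229 to 3275 with FGF21 and from 2721 to 2944 without. Their part in the difference of Tfrc was not tested.

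**Figure D4:**
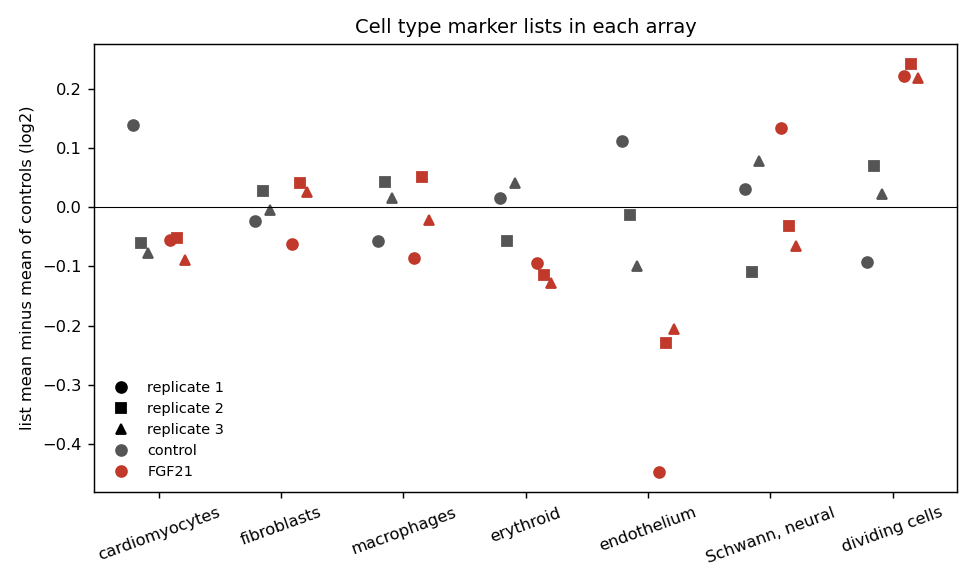
Mean log2 value of each marker list in each array, minus the mean of the 3 controls; grey is control, red is FGF21, and marker shape gives the replicate number. Dividing-cell markers lie above all controls in every FGF21 array, endothelial and erythroid markers below, and macrophage, fibroblast and cardiomyocyte markers overlap.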

How the data were processed

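The deposited log2 values were made by the authors with RMA; the submitters' processing notes name affy and R 3.2.2. The method corrects background, equalises array distributions and summarises probes, so it can hide a shift of all genes and compresses differences of dim rows. Which chip definition and build were used is not given in the sources used here. The table has 41345 rows; 23521 had 1 symbol in the platform annotation, 1814 several, and 16010 were not in the annotation table. Medians of the arrays ran from 5.76 to 5.83, with the FGF21 arrays lowest. The number of arrays limits the precision.

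Groups and replicate numbers come from the sample titles. All 22180 genes were fitted in R 4.3.3 by limma, version 3.58.1, through lmFit and eBayes (default prior, no covariate, two-sided), with Benjamini-Hochberg adjustment over all of them and a threshold of 0.05. The fit was tested on simulated data. The members and lists were chosen with earlier results of these data known. The rule for other named genes takes up to 3 of smallest p in each list, plus a fixed set that includes Ftl1, Epas1, Fbxl5, Alas2, Alas1, Tfr2, Slc25a37, Hmox2 and Cp. Of these, Ftl1 and Alas2 had no row of their own. Cdc14a, Cd68, Ptprc and Lyz2 were named after their values were seen, Cdc14a also by the rule. Sequences are from RefSeq. The alternatives are named in the closing section.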

Additional observations from a re-analysis of the deposited data

How the results depend on the processing

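Settings tried were a replicate block, leaving out each array, the mean of a gene's rows, all rows tested, 2 filters on dim genes, quantile normalization applied again, median centring, a trend and robust prior, array weights and other thresholds. Of the 8 members besides Tfrc, 0 passed limma at an adjusted p under 0.05 in every one of these fits, the smallest adjusted p being 0.118 for Slc40a1 with genes below the lowest array median left out. At an unadjusted p under 0.05 the count was 2 for the members (2 to 3 with an array left out, 3 without control replicate 1) and 11 for the other iron genes (6 to 14 with an array left out). Differences near 0 changed sign: Fth1 was 0.0019 with quantile normalization again, 0.017 with median centring and from -0.026 to 0.011 with an array left out, and Ireb2 was -0.037 with quantile normalization again and from -0.026 to 0.083 with an array left out. Slc40a1 ran from -0.36 to -0.27, Hmox1 from -0.43 to -0.24 and Tfrc from 0.56 to 0.72; since groups that do not overlap keep their sign with any array left out, the direction is no sign of stability. Over all genes limma called 0, but 23 and 26 with the filters on dim genes, 16 under the trended robust prior, 5 with quantile normalization again, and 2 each with the mean of rows, median centring, array weights or FGF21 replicate 1 left out; of genes at an unadjusted p under 0.05, 56.3% were higher, and 70.3% with median centring. Same-numbered arrays deviated together at correlations of 0.103, 0.158 and 0.0065, against -0.16 to 0.042 for differently numbered arrays. These values do not settle whether the numbers are pairs. The labels name no block, so the main fit has none. With the replicate block 0 of the 8 members passed, and 13 of the other iron genes had an unadjusted p under 0.05.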

Other observations

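Slc11a2, higher with FGF21, and Hmox1, lower, had deviations from their group means that correlated at 0.95 over the 6 arrays, and Slc11a2 and Slc40a1 at 0.89. Not all pairs with opposite differences did so: the value was -0.78 for Tfrc and Slc40a1, -0.55 for Tfrc and Hmox1 and -0.15 for Aco1 and Hmox1. Control replicate 1 had the highest value of its group for Slc11a2, Slc40a1 and Hmox1, and FGF21 replicate 1 the lowest of its group. Cardiomyocyte markers were also highest in control replicate 1, with a list mean of 11.44 against 11.21 to 11.25 in the other 5 arrays. These are descriptions over 6 arrays and were chosen after the values were seen. Deviations from group means hold fewer free values than there are arrays, and such correlations with Tfrc reached 0.997 for Kif24.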
